A study of Mus musculus with 16 samples.

Results

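The genes described here set the electrical excitability of the skeletal muscle fibre membrane: Scn4a, Clcn1, Cacna1s, Cacnb1 and Cacng1, which encode channel subunits, and Atp1b1, which encodes a subunit of the sodium pump. They were taken by gene symbol from a count table of mouse rotator cuff muscle, and all 6 were among the 11710 genes of that table and among the 11709 genes tested. RNA was sequenced from 16 muscle samples in 4 groups of 4, which cross the strain with the surgery. The strains were C57BL/6J (BL6 below) and MRL/MpJ (MRL below), and within each strain muscle that had undergone tenectomy (removal of tendon) with denervation (loss of its nerve supply) was compared with muscle of unoperated controls. No transgene or further treatment is named for any group. The labels name the supraspinatus and the series text the infraspinatus, so the tissue is called rotator cuff muscle. Age, sex, the time from surgery to collection and whether the samples of a group are separate animals are not given in the sources used here, so the p-values measure the spread between these samples, which may be partly technical. Tenectomy and denervation came together, so their contributions cannot be told apart.

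A muscle fibre fires when its sodium channel opens, and the chloride channel ClC-1 and several potassium channels return the membrane to rest. The action potential spreads along the transverse tubules, where the voltage-sensing calcium channel of the triad, the dihydropyridine receptor, couples it to calcium release from the sarcoplasmic reticulum. The sodium pump restores the sodium and potassium gradients that repeated firing runs down. In these roles Scn4a encodes the pore of the adult muscle sodium channel Nav1.4, and Clcn1 encodes ClC-1. Cacna1s, Cacnb1 and Cacng1 encode the pore-forming, beta and gamma subunits of the dihydropyridine receptor, and Atp1b1 encodes the beta 1 subunit of the sodium pump. Loss of function of Clcn1 causes myotonia, and changes in Scn4a or Cacna1s cause periodic paralysis.

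After surgery the sodium channel pore gene Scn4a had the largest fall of the 6 genes in both strains, 4.86-fold in BL6 and 2.61-fold in MRL. The calcium channel genes Cacna1s and Cacnb1 also fell in both strains, and Clcn1 fell by 1.36-fold in BL6 and 1.33-fold in MRL. The gamma subunit gene Cacng1 fell in MRL by 1.39-fold and had a log2 change of 0.06 in BL6. Atp1b1 fell in BL6 by 1.395-fold, and its log2 change of -0.42 in MRL did not pass the test. A gene was called where the p of edgeR's quasi-likelihood test, after Benjamini-Hochberg adjustment across the whole table, was below 0.05. In each strain 5 of the 6 genes were called lower and 0 higher. The share of all genes tested that was called was 67.9% for BL6 and 45.0% for MRL, and the share called lower was 32.8% and 22.7%. The median log2 change of the 6 genes was -0.62 in BL6 against 0.04 over all genes tested, and -0.51 in MRL against 0.01. In RNA from whole muscle, fewer fibres and less RNA per fibre cannot be told apart.

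The libraries held 24323862 to 43552964 counts, and a member had between 2243 and 50849 counts in a sample, so counting error was small beside the spread between samples. A count of 3 corresponded to 0.0689 to 0.123 CPM (counts per 1000000 counts of a library). Before any result, some libraries have to be named. On the leading principal component of log2 CPM, which held 51.8% of the variance, unoperated MRL replicate 1 lay at -7.49 against -44.87 to -38.73 for the other unoperated MRL samples. Operated MRL replicate 4 lay at 13.35 against 25.89 to 54.78 for its group, and its share of mitochondrial counts was 11.8% against 20.1% to 24.9% in the rest of that group and 10.97% to 11.63% in unoperated MRL. Operated BL6 replicate 4 lay at 86.06, the far end of the operated BL6 samples. Operated BL6 replicate 2 lay at 16.71, the end nearest to the unoperated samples, against 44.62 for replicate 1 and 51.02 for replicate 3. Without unoperated MRL replicate 1 and operated MRL replicate 4, a choice made after seeing the data, the MRL changes were -2.11 for Scn4a, -1.17 for Cacna1s, -0.82 for Cacnb1, -0.59 for Atp1b1 and -0.50 for Clcn1, all called by edgeR's quasi-likelihood test, and -0.48 for Cacng1, which was not called. In that fit 54.7% of all genes tested were called for surgery in MRL.

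Markers of skeletal fibres were high throughout, and 4 of 8 of them (Ckm, Acta1, Pygm and Actn3) fell in each strain. Each marker count in this paragraph stands against the shares of all genes tested. These were 32.8% called lower and 35.1% called higher in BL6, and 22.7% and 22.3% in MRL. Their summed level ranged from 90670 to 111300 CPM in unoperated BL6 and from 44150 to 100100 CPM in operated BL6. Operated BL6 replicate 2 held the 100100 CPM, against 44150 to 71120 CPM in the rest of its group. The sum ranged from 78600 to 92750 CPM in unoperated and from 55090 to 71410 CPM in operated MRL. Markers of other cell types rose: 4 of 4 adipocyte, 4 of 4 Schwann cell and 3 of 3 smooth muscle genes in both strains, and 2 of 3 (BL6) and 3 of 3 (MRL) endothelial genes. The summed adipocyte level ranged from 208.4 to 278.8 CPM in unoperated and 1209 to 1656 CPM in operated BL6, and from 262.5 to 369.2 CPM and 1086 to 1902 CPM in MRL. Most of that sum was Fabp4, with a mean of 1319 CPM in operated BL6, and operated MRL replicate 4 was lowest of its group in Fabp4 (903 CPM) and highest in Adipoq (85.1 CPM). The summed Schwann cell level ranged from 36.05 to 50.19 and 93.51 to 249.6 CPM in BL6, and from 26.07 to 55.09 and 40.8 to 153.0 CPM in MRL. Of 4 macrophage genes, 2 rose in BL6 and 0 in MRL, where unoperated replicate 1 held 254.8 CPM against 44.77 to 67.12 CPM in the rest of its group. Of 4 fibroblast genes 1 rose in BL6 and 0 in MRL, of 2 satellite cell genes 2 fell in BL6 and 1 in MRL, and of 5 slow fibre genes 1 rose in BL6 and 4 in MRL. The MRL slow fibre count was 1 without operated replicate 4, whose sum was 631.2 CPM against 21.36 to 189.3 CPM in the rest of its group. No marker was at 0 in any sample. Of 6 genes known to respond to denervation, 4 rose and 1 fell in each strain. The part of these shifts in the results below was not tested.

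The promoters of Clcn1 and Cacna1s are shown as examples of genes called lower in both strains whose windows hold motif matches. Cacnb1, also called lower in both strains, has an E-box in 1 of its 2 windows and is not shown. Each is the sequence before the RefSeq start site in the build GRCm38.p6, on the strand of the gene, and capitals mark matches to the E-box (letters CANNTG, the same on both strands) and, in Clcn1, to the MEF2 motif, both known from promoters of muscle genes. The Clcn1 stretch is chr6:42286435-42286684, plus strand, and ends at the base before the start site. The Cacna1s stretch is chr1:136052561-136052749, plus strand, and ends before the first exon base that GENCODE annotates.
Clcn1: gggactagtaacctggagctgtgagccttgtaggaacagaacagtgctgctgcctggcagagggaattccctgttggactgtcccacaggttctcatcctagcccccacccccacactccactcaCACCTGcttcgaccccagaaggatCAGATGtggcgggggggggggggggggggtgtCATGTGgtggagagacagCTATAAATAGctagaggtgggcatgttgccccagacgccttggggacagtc
Cacna1s: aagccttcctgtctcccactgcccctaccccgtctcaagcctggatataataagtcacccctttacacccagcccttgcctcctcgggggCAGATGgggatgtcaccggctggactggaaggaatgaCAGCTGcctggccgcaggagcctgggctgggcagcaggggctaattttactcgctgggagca

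The Clcn1 stretch holds 3 E-boxes, the nearest of them CATGTG at bases 64 to 69 before the start site. It also holds 1 MEF2 match, CTATAAATAG at bases 42 to 51, which contains the TATAAA letters at bases 45 to 50. The Cacna1s stretch holds 2 E-boxes, CAGATG at bases 155 to 160 before the RefSeq start and CAGCTG at bases 118 to 123. An E-box of any letters was present in 66.2% of the 32851 RefSeq windows of 250 bases, CAGCTG in 13%, TATAAA in 12.4% and the MEF2 motif in 0.508%. The window of Atp1b1 held no match to these motifs, nor did 1 of the 2 Cacnb1 windows, while the other held 1 E-box. The RefSeq window of Scn4a also held none, but 186 of its 250 bases lie in exons of the gene as GENCODE annotates it, downstream of the GENCODE start, so this says nothing of the promoter there. Cacng1 had no entry. These matches describe the letters only.

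Scn4a lies on chromosome 11 at 106318592 to 106353288 on the minus strand of GRCm38 (gene ENSMUSG00000001027, GENCODE M21 annotation, like the positions below). In replicates 1 to 4 it measured 517, 549, 670 and 668 CPM in unoperated BL6 and 117, 153, 149 and 76.4 CPM in operated BL6. Every operated BL6 sample lay far below every unoperated one. In MRL the values were 253, 442, 495 and 378 CPM without surgery and 91.1, 128, 85.2 and 297 CPM after it. Here the groups overlapped, because operated replicate 4 stood above unoperated replicate 1, the same 2 MRL libraries that stood apart on the leading component.

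The group means of Scn4a were 601 ± 79.9 and 124 ± 35.4 CPM in BL6 and 392 ± 105 and 150 ± 99.5 CPM in MRL (SD, n = 4). By edgeR's quasi-likelihood test the log2 change was -2.28 (SE 0.36, adjusted p = 9.264e-05) in BL6 and -1.38 (SE 0.35, adjusted p = 0.00676) in MRL. The call held in every alternative run, with a log2 change from -2.40 to -1.71 in BL6 and from -2.11 to -1.03 in MRL. Without operated MRL replicate 4 the MRL change was -1.95.

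**Figure D1:**
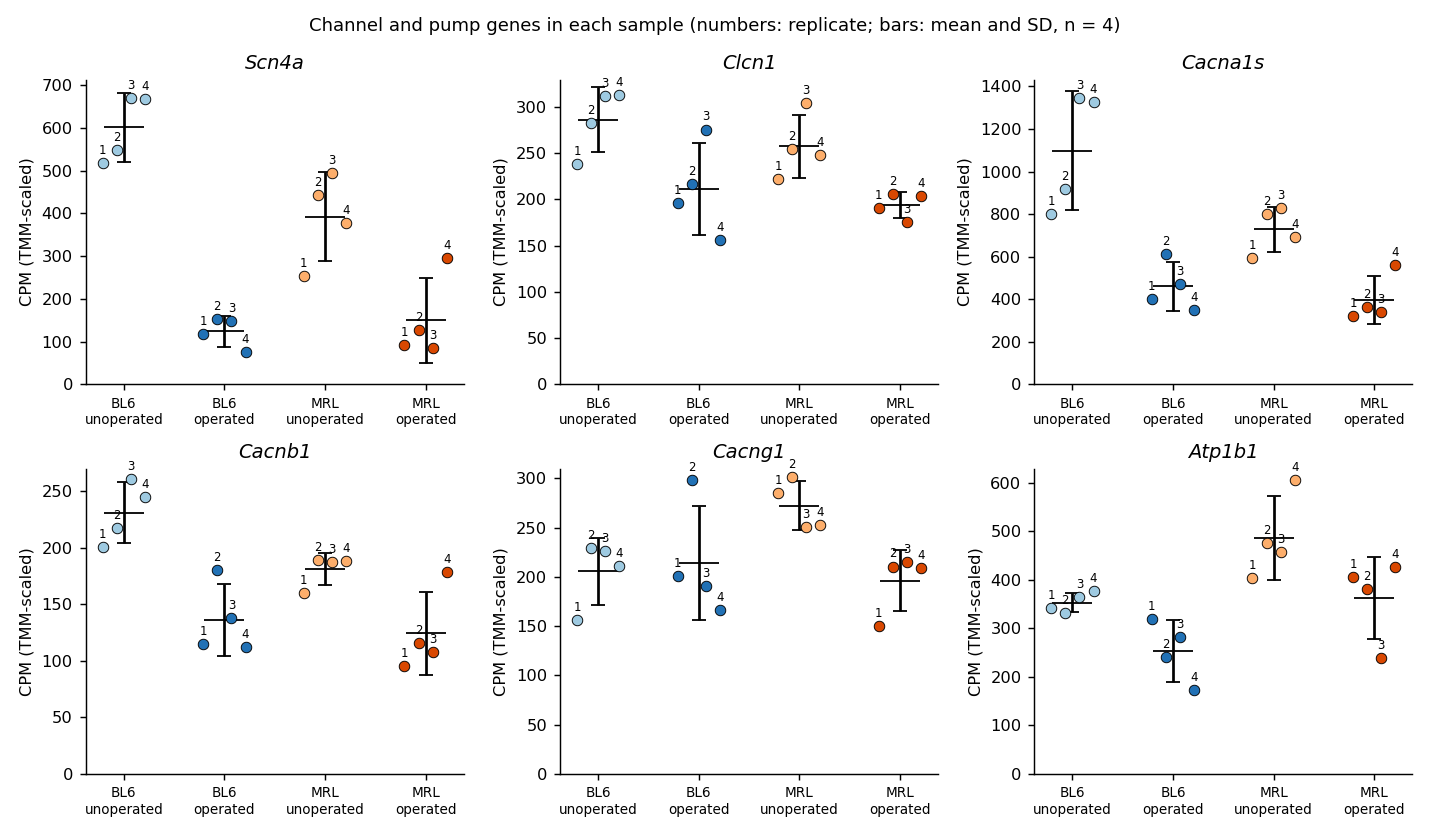
Level of each of the 6 genes in CPM (vertical axes, linear and from 0) in every sample of the 4 groups, numbered by replicate, with bars for the group mean and SD. Scn4a shows a wide gap between unoperated (517 to 670 CPM) and operated BL6 (76.4 to 153 CPM), while the Cacng1 samples of these 2 groups lie among each other.

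Clcn1 lies on chromosome 6 at 42286685 to 42315756 on the plus strand (ENSMUSG00000029862) and shares 445 exon bases with Fam131b on the other strand. That neighbour is not among the genes analysed here, and as the use of strand in counting is not given, its reads cannot be told apart from those of Clcn1 there. Clcn1 measured 238, 283, 311 and 312 CPM in unoperated BL6 and 196, 216, 275 and 156 CPM in operated BL6. Operated replicate 3 stood above unoperated replicate 1, so these groups overlapped. In MRL the values were 222, 255, 304 and 248 CPM without surgery and 190, 205, 175 and 204 CPM after it, with no overlap.

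The group means of Clcn1 were 286 ± 34.8 and 211 ± 49.7 CPM in BL6 and 257 ± 34.2 and 194 ± 14.2 CPM in MRL (SD, n = 4). The log2 change was -0.44 (SE 0.16, adjusted p = 0.0216) in BL6 and -0.41 (SE 0.16, adjusted p = 0.0453) in MRL by edgeR's quasi-likelihood test. The call was lost when any 1 of unoperated BL6 replicates 3 or 4 or operated BL6 replicates 1 or 4 was left out (-0.40 to -0.33), and in MRL when any 1 library other than unoperated replicate 1 or operated replicate 4 was left out (-0.44 to -0.32). With libraries scaled by total counts it was lost in both strains, at -0.31 and -0.36.

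Cacna1s lies on chromosome 1 at 136052750 to 136119822 on the plus strand (ENSMUSG00000026407) and shares 1309 exon bases with the antisense gene Gm37759. It measured 799, 920, 1344 and 1328 CPM in unoperated BL6 and 403, 614, 473 and 351 CPM in operated BL6. In MRL it measured 596, 801, 828 and 691 CPM without surgery and 320, 366, 340 and 560 CPM after it. The operated samples lay below all unoperated ones in both strains, and operated MRL replicate 4 came nearest to the unoperated samples. The means were 1098 ± 279 and 460 ± 114 CPM in BL6 and 729 ± 107 and 397 ± 111 CPM in MRL (SD, n = 4). By edgeR's quasi-likelihood test the log2 change was -1.25 (SE 0.23, adjusted p = 0.000265) in BL6 and -0.88 (SE 0.23, adjusted p = 0.00754) in MRL, and it was called in every alternative run.

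Cacnb1, whose product brings the channel pore to the membrane, lies on chromosome 11 at 98001508 to 98023034 on the minus strand (ENSMUSG00000020882) and shares 80 exon bases with Gm11629 on the other strand. Its values were 201, 217, 261 and 245 CPM in unoperated and 115, 181, 138 and 112 CPM in operated BL6, with no overlap. In MRL they were 160, 189, 187 and 188 CPM without surgery and 95.3, 116, 108 and 178 CPM after it, and only operated replicate 4 lay above an unoperated sample, replicate 1. The log2 change was -0.76 (SE 0.19, adjusted p = 0.00248) in BL6 and -0.54 (SE 0.19, adjusted p = 0.0293) in MRL by edgeR's quasi-likelihood test. The BL6 call held without each library in turn. In MRL it was lost when any 1 library other than unoperated replicate 1 or operated replicate 4 was left out, at -0.52 to -0.44, and with scaling by total counts, at -0.47.

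Cacng1, whose product is an accessory subunit that dampens the channel, lies on chromosome 11 at 107703218 to 107716522 on the minus strand (ENSMUSG00000020722). It measured 156, 229, 226 and 211 CPM in unoperated BL6 and 201, 298, 191 and 166 CPM in operated BL6. These groups lay among each other, and the highest value was that of operated replicate 2. In MRL the values were 285, 302, 251 and 252 CPM without surgery and 150, 210, 215 and 209 CPM after it, with no overlap and with operated replicate 1 below the rest of its group.

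The means of Cacng1 were 206 ± 33.9 and 214 ± 58.1 CPM in BL6 and 272 ± 25.3 and 196 ± 30.7 CPM in MRL (SD, n = 4). By edgeR's quasi-likelihood test the log2 change was 0.06 (SE 0.18, adjusted p = 0.788, 95% interval -0.29 to 0.41) in BL6 and -0.47 (SE 0.18, adjusted p = 0.0434) in MRL. The MRL call was lost when any 1 library other than operated replicate 4 was left out, at -0.52 to -0.36. The BL6 change was -0.06 without unoperated replicate 1 and -0.15 without operated replicate 2.

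Atp1b1, whose product carries the pump to the membrane and tunes its ion affinity, lies on chromosome 1 at 164437109 to 164458355 on the minus strand (ENSMUSG00000026576) and shares 575 exon bases with Nme7 on the other strand. It measured 341, 331, 364 and 376 CPM in unoperated BL6 and 319, 240, 282 and 172 CPM in operated BL6, with no overlap. In MRL it measured 404, 476, 457 and 607 CPM without surgery and 405, 382, 239 and 426 CPM after it. The MRL groups overlapped, since operated replicates 1 and 4 stood above unoperated replicate 1.

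The means of Atp1b1 were 353 ± 20.5 and 253 ± 63.1 CPM in BL6 and 486 ± 86.1 and 363 ± 84.9 CPM in MRL (SD, n = 4). The log2 change was -0.48 (SE 0.20, adjusted p = 0.0437) in BL6 and -0.42 (SE 0.20, adjusted p = 0.0948) in MRL by edgeR's quasi-likelihood test. The BL6 call was lost when any 1 library other than operated replicates 1 or 3 was left out, at -0.51 to -0.34, and with scaling by total counts, at -0.37. Unoperated and operated samples were fully separated for 4 of the 6 genes in BL6 and 3 in MRL, where 56.8% and 33.7% of all genes tested were.

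**Figure D2:**
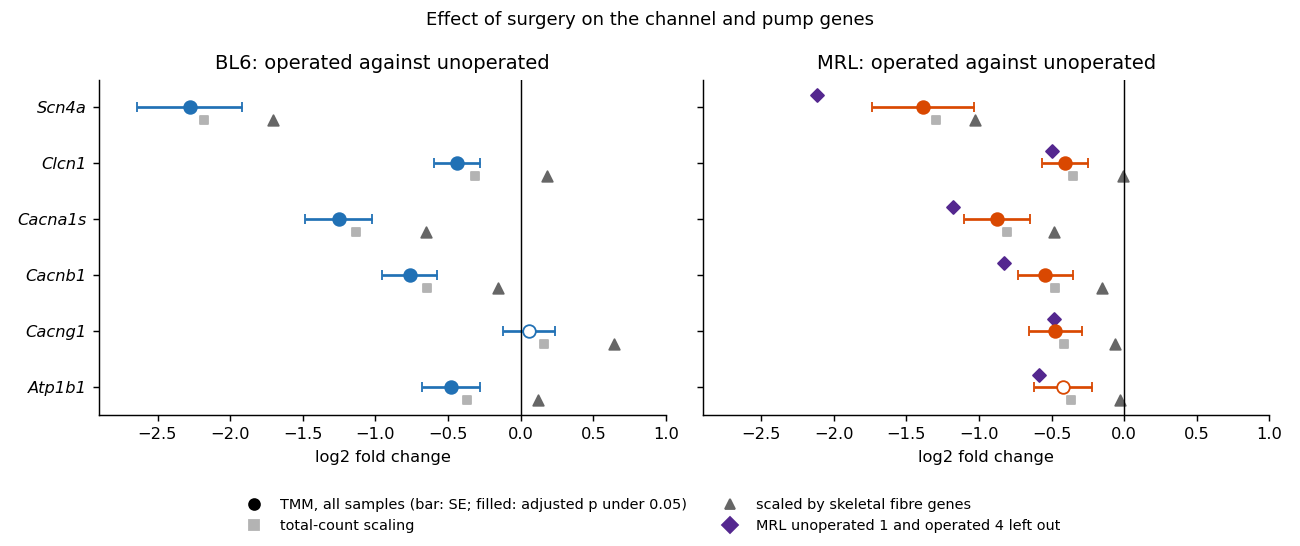
Log2 change from unoperated to operated muscle (horizontal axis) for each of the 6 genes in BL6 (left) and MRL (right), with circles for the main analysis (bar: SE, filled: called), squares for scaling by total counts, triangles for scaling by the fibre markers and, in MRL, diamonds without unoperated replicate 1 and operated replicate 4. In the main analysis Scn4a lies farthest from 0 in both strains, at -2.28 and -1.38, and Cacng1 is the gene whose strains lie on different sides of 0, at 0.06 and -0.47.

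How large these changes are depends on the scale they are measured against. Scaled so that the mean log level of the 8 skeletal fibre markers was the same in all samples, the median change of all genes tested moved to 0.70 in BL6 and 0.42 in MRL. Single markers were not level on that scale, since they did not move alike. In BL6 the mean of Actn3 went from 5741 to 2184 CPM with surgery and that of Mb from 4441 to 5631 CPM. On that scale Scn4a (-1.71 and -1.03) and Cacna1s (-0.65 and -0.48) were still called lower in both strains by edgeR's quasi-likelihood test. Cacnb1 stood at -0.15 in both strains, and Clcn1 at 0.18 and -0.01 and Atp1b1 at 0.12 and -0.03, none of them called. Cacng1 was called higher in BL6, at 0.65 (adjusted p = 0.00171 in edgeR's test), which is -0.05 relative to the median gene, and stood at -0.06 in MRL. On this scale 6748 genes were called higher and 949 lower in BL6, against 4107 and 3843 in the main analysis, and 3640 and 470 in MRL, against 2609 and 2663.

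Whether the strains responded differently was tested as the interaction, the change in MRL minus that in BL6. For Scn4a it was 0.90 on the log2 scale (SE 0.49, 95% interval -0.06 to 1.85, adjusted p = 0.371 in edgeR's test) and for Cacng1 -0.53 (SE 0.25, adjusted p = 0.322 in edgeR's test, unadjusted 0.0539). It was 0.38 for Cacna1s, 0.22 for Cacnb1, 0.06 for Atp1b1 and 0.03 for Clcn1. By edgeR's quasi-likelihood test 0 of the 6 genes were called, where 0.248% of all genes tested were. Of the 6, 0 reached an unadjusted p under 0.05. DESeq2 also called 0, where 2.14% of the genes it tested were called. With 1 library left out the Scn4a value ranged from 0.33, without operated MRL replicate 4, to 1.09. It was 0.17 without operated MRL replicate 4 and unoperated MRL replicate 1. For Cacng1 it was -0.54 without both. The Scn4a interval is wide enough to hold both no difference and a gap of more than 1 on the log2 scale.

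Between the strains without surgery, Atp1b1 and Cacng1 had higher and Scn4a and Cacnb1 lower levels in every MRL sample than in every BL6 sample. The log2 differences, MRL minus BL6, were 0.46 for Atp1b1 (adjusted p = 0.168), 0.41 for Cacng1 (0.178), -0.62 for Scn4a (0.294) and -0.35 for Cacnb1 (0.273), with adjusted p-values from edgeR's quasi-likelihood test. Cacna1s differed by -0.59 (adjusted p = 0.118 in edgeR's test) and Clcn1 by -0.15, both with overlapping groups. None of the 6 was called, where 10.4% of all genes tested were, and 3 had an unadjusted p under 0.05. DESeq2 called 0 as well, where 14.3% of the genes it tested were called. Full separation of the groups, seen for 4 of the 6, was seen for 25.1% of all genes tested. Fitted on the 2 unoperated groups alone, 5 of the 6 passed the threshold, all but Clcn1, and 20.8% of all genes tested passed in that fit. With scaling by total counts or by the fibre markers Cacng1 and Atp1b1 passed.

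After surgery the strains overlapped for all 6 genes, and 13.6% of all genes tested were free of overlap. The log2 difference was 0.52 for Atp1b1 (adjusted p = 0.105 in edgeR's test), 0.28 for Scn4a and between -0.21 and -0.12 for the other four. Of the 6 genes 0 were called, where 12.9% of all genes tested were, and 1 had an unadjusted p under 0.05. DESeq2 called 0. Atp1b1 passed with scaling by total counts and without operated MRL replicate 3. The Scn4a difference was -0.30 without operated MRL replicate 4.

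The authors' deposited table of their own comparisons gives Scn4a a log2 fold change of -2.12 in BL6 and -1.56 in MRL, with false discovery rates (FDR) of 8.826e-05 and 0.00116. In that deposited table of the authors Atp1b1 has an FDR of 0.0705 for surgery in BL6 and of 0.0171 in MRL, each on the other side of 0.05 from the fit above. The authors' deposited table also puts Atp1b1 below 0.05 between the unoperated strains, at a log2 fold change of 0.585 and an FDR of 0.0490.

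Levels of different genes were compared per kilobase (kb) of merged exons, and neighbours in the order are said to differ where their means lie farther apart than the sum of their SDs. In unoperated BL6 Cacna1s (168 ± 42.7 CPM per kb) and Cacng1 (165 ± 27.1) led and did not differ beyond their spread, followed by Atp1b1 (115 ± 6.66) and Scn4a (85.4 ± 11.3). Clcn1 (52.7 ± 6.41) and Cacnb1 (51.0 ± 5.99) came last in that group, again within their spread (SD, n = 4), and the other neighbours differed. In operated BL6 Cacng1 led at 171 ± 46.5 CPM per kb, ahead of Atp1b1 (82.2 ± 20.5) and Cacna1s (70.3 ± 17.4), which lay within their spread of each other. Scn4a was then the lowest of the 6, at 17.6 ± 5.03, beyond the spread of its neighbour Cacnb1 at 30.1 ± 7.01. Clcn1 at 38.9 ± 9.15 and Cacnb1 were within theirs.

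In unoperated MRL Cacng1 led at 218 ± 20.2 CPM per kb, followed by Atp1b1 (158 ± 28.0) and Cacna1s (111 ± 16.3). Scn4a (55.7 ± 14.9), Clcn1 (47.4 ± 6.31) and Cacnb1 (40.0 ± 3.15) followed there, none of these 3 beyond the spread of its neighbour, while the higher neighbours differed. In operated MRL the order was Cacng1 (157 ± 24.6), Atp1b1 (118 ± 27.6), Cacna1s (60.6 ± 16.9), Clcn1 (35.7 ± 2.61), Cacnb1 (27.4 ± 8.18) and Scn4a (21.3 ± 14.1), and only Atp1b1 from Cacna1s and Cacna1s from Clcn1 differed beyond their spread. Scn4a was thus the lowest of the 6 per kilobase in both operated groups and in neither unoperated one. With the length of the longest coding transcript instead, only Scn4a and Clcn1 of unoperated MRL changed places.

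Ratios of a pair of genes within a sample do not depend on how libraries are scaled. The log2 ratio of Clcn1 to Scn4a was -1.12, -0.96, -1.11 and -1.10 in unoperated BL6 and 0.74, 0.50, 0.89 and 1.03 in operated BL6. It was thus below 0 in each unoperated and above 0 in each operated BL6 sample. In MRL the ratio was -0.19, -0.80, -0.70 and -0.61 without surgery and 1.06, 0.69, 1.04 and -0.54 after it. Operated MRL replicate 4 alone stayed within the unoperated range. The shift was 1.86 in BL6 (two-sided exact permutation p = 0.0286, 0.0571 after Benjamini-Hochberg adjustment over 8 tests) and 1.14 in MRL (exact p = 0.0571, adjusted 0.0914). With 4 samples against 4 an exact p cannot go below 0.0286. Leaving out 1 library at a time gave 1.78 to 1.957 in BL6 and 0.97 to 1.504 in MRL.

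Within the dihydropyridine receptor, the accessory subunit genes were set against the pore gene Cacna1s. The log2 ratio of Cacng1 to Cacna1s was -2.35, -2.003, -2.57 and -2.66 in unoperated and -1.005, -1.04, -1.31 and -1.08 in operated BL6. The groups were fully separated, and the shift of 1.29, a factor of 2.44, had an exact permutation p of 0.0286 (adjusted 0.0571). In MRL the ratio was -1.06, -1.41, -1.72 and -1.45 without surgery and -1.09, -0.80, -0.66 and -1.42 after it. These groups overlapped, and the shift was 0.42 (exact permutation p = 0.143, adjusted 0.163).

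The log2 ratio of Cacnb1 to Cacna1s was -1.99, -2.08, -2.36 and -2.44 in unoperated and -1.81, -1.77, -1.78 and -1.65 in operated BL6. In MRL it was -1.90, -2.08, -2.14 and -1.88 without surgery and -1.75, -1.66, -1.66 and -1.65 after it. All operated samples stood above all unoperated ones in both strains. The shifts were 0.47 in BL6 and 0.32 in MRL, each with an exact permutation p of 0.0286 (adjusted 0.0571). None of the 8 ratio tests passed 0.05 after adjustment. Even tests at the smallest possible exact permutation p of 0.0286, with fully separated groups, had an adjusted p of 0.0571. The lack of a pass therefore does not show that the ratios were unchanged.

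**Figure D3:**
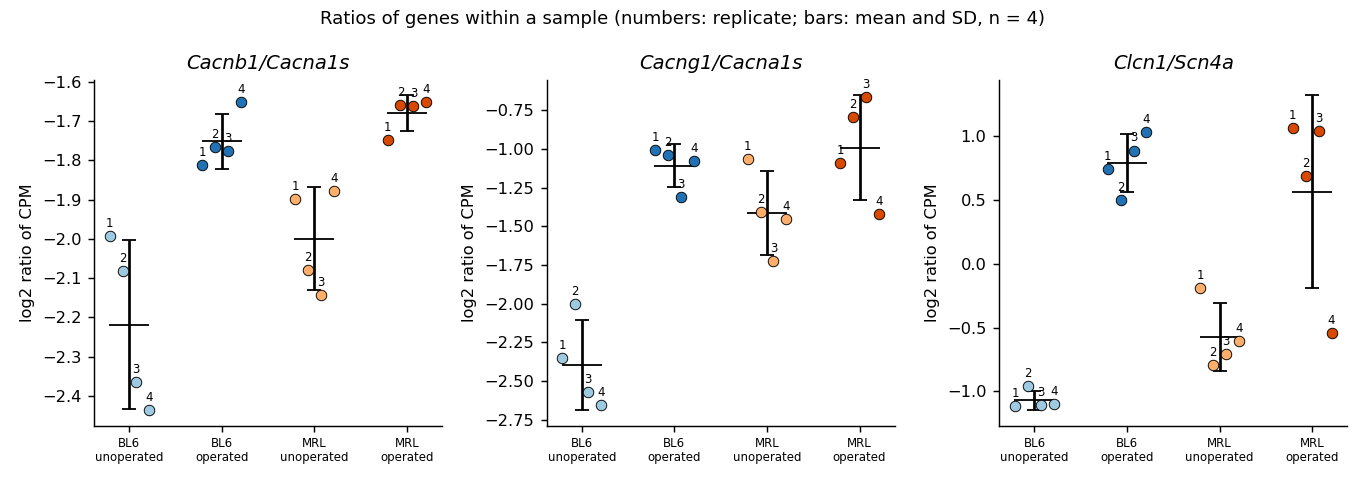
Log2 ratio of CPM of a pair of genes in the same sample (vertical axes) for 3 ratios, 1 point per sample in each of the 4 groups, numbered by replicate, with bars for the group mean and SD. The ratio of Clcn1 to Scn4a goes from between -1.12 and -0.96 in unoperated BL6 to between 0.50 and 1.03 in operated BL6, and operated MRL replicate 4 lies at -0.54.

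Likeness of profiles over the 16 samples was measured as the root mean square difference of log2 CPM after centring each gene on its own mean, so that 0 means the same profile. Cacna1s and Cacnb1 were the closest pair, at 0.242, and Scn4a and Cacng1 the farthest apart, at 1.03. Among all other genes of at least 5 CPM on average, the profile nearest to Scn4a was that of Scn4b, a beta subunit of sodium channels, at 0.152, followed by Serac1 at 0.201 and Paip2b at 0.230, against a median of 1.10 over 9637 genes. Nearest to Cacna1s were Rbl2 (0.133), Dyrk1b (0.158) and Fbxo31 (0.163), against a median of 0.671. Cacnb1 was nearest to Gsk3a (0.091), Gtpbp1 (0.114) and Akt2 (0.117), against a median of 0.492. Clcn1 was nearest to Polr1b (0.121), Tmem80 (0.128) and Dcaf11 (0.130), Cacng1 to Eif4ebp1 (0.167), Slc35e4 (0.170) and Cln6 (0.170), and Atp1b1 to Ugp2 (0.191), Gzf1 (0.202) and Rarb (0.206). All 16 samples enter each of these values, so they describe these libraries only.

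Around the 6 genes stood 53 other listed genes of membrane excitability, 44 of which were tested. In BL6 25 of the 44 were called lower and 9 higher by edgeR's quasi-likelihood test, with a median log2 change of -0.68. Of all genes tested 32.8% were called lower and 35.1% higher there. In MRL 18 were called lower and 6 higher, with a median of -0.40, where 22.7% of all genes were called lower and 22.3% higher. Without unoperated MRL replicate 1 and operated MRL replicate 4 the MRL counts were 25 and 9. In that fit 28.0% of all genes tested were called lower and 26.6% higher. With scaling by the fibre markers 15 were called lower and 17 higher in BL6, and 11 and 8 in MRL. On that scale 8.10% of all genes tested were called lower and 57.6% higher in BL6, and 4.01% and 31.1% in MRL.

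Of 5 tested sodium channel partners, 4 fell in BL6 and 3 in MRL, and 0 rose. For these and the Clcn counts below, 32.8% of all genes tested were called lower and 35.1% higher in BL6, and 22.7% and 22.3% in MRL. Scn4b averaged 820 and 155 CPM in unoperated and operated BL6 and 440 and 183 CPM in MRL, log2 changes of -2.40 and -1.26. The MRL change of Scn4b was -1.87 without unoperated replicate 1 and operated replicate 4. Fgf13, which binds the tail of sodium channels, changed by -1.37 and -0.84. Ank3, which anchors channels in the membrane, fell in BL6 (-0.81) and stood at -0.38 in MRL, where it was called without unoperated replicate 1 (-0.49) or operated replicate 4 (-0.54). Of 6 other chloride channel and transporter genes of the Clcn family, 2 fell in both strains, Clcn3 (-1.30 and -0.50) and Clcn4 (-0.41 and -0.29), and 1 rose in each strain, Clcn2 in BL6 (0.67) and Clcn6 in MRL (0.36). The MRL call of Clcn6 was lost without unoperated replicates 2 or 3 or operated replicates 1 or 3 (0.28 to 0.34), and Clcn2 was called in MRL without operated replicate 4 (0.54).

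Among 15 tested potassium channel genes, 11 fell and 3 rose in BL6, and 7 fell and 1 rose in MRL. The shares of all genes tested were 32.8% lower and 35.1% higher in BL6, and 22.7% and 22.3% in MRL. Kcna7, a voltage-gated channel gene, averaged 73.8 CPM in unoperated and 6.14 CPM in operated BL6, a log2 change of -3.60. In operated MRL Kcna7 measured 5.52, 8.32, 4.44 and 63.2 CPM, so that replicate 4 alone lay at the level of the unoperated samples, 35.9 to 78.8 CPM. The MRL log2 change of -1.61 did not pass (adjusted p = 0.0524 in edgeR's test), and without operated replicate 4 it was -3.36 and called. It was also called, at -1.78, without unoperated replicate 1. The inward rectifier Kcnj12 fell in both strains (-1.94 and -1.16), as did Kcnq5 (-1.97 and -1.33) and Abcc9, which encodes a regulatory subunit of ATP-sensitive channels (-1.71 and -0.96). Kcnj11, the pore of the ATP-sensitive channel, changed by -0.997 and -0.68, and its MRL call was lost without unoperated replicates 2 or 3 or operated replicates 1, 2 or 3 (-0.66 to -0.56). Kcna5 went the other way and rose by 1.42 in BL6 and 1.06 in MRL, from averages of 10.04 and 6.45 CPM. Kcna2 (0.765) and Kcnn3 (1.16) also rose in BL6, from averages of 3.74 and 2.74 CPM. Of 8 fits that left out 1 library, 3 called Kcna2 and 2 called Kcnn3.

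Of the 44 genes 1, Kcnc4, passed the test of the difference between strains in the main analysis, where 0.248% of all genes tested passed. It measured 123, 134, 161 and 143 CPM in unoperated BL6 and 44.1, 65.3, 44.1 and 47.9 CPM in operated BL6. In MRL it measured 84.5, 86.1, 100 and 86.1 CPM without surgery and 57.9, 70.6, 67.1 and 94.1 CPM after it. The BL6 groups were far apart, while operated MRL replicate 4 lay among the unoperated MRL samples. The log2 change was -1.48 in BL6 and -0.30 in MRL (adjusted p = 0.122 in edgeR's test), and the interaction was 1.18 (SE 0.22, adjusted p = 0.0423 in edgeR's test). The interaction was called in 2 of the 16 fits that left out 1 library, those without operated BL6 replicate 2 or operated MRL replicate 3, and lost in the other 14, at values from 1.03 to 1.33 over all 16. The call was also lost with scaling by total counts (1.12, adjusted p = 0.0776 in edgeR's test). Over the alternatives run the adjusted p ranged from 0.000271 in DESeq2 to 0.477 with scaling by the fibre markers. DESeq2 called 2.14% of the genes it tested for the interaction.

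Of 10 genes of the calcium channel and the triad, 7 fell and 2 rose in BL6, and 5 fell and 1 rose in MRL. The shares of all genes tested were 32.8% lower and 35.1% higher in BL6, and 22.7% and 22.3% in MRL. The junctophilin genes Jph1 and Jph2, whose products hold the transverse tubule against the sarcoplasmic reticulum, changed by -2.22 and -1.85 in BL6 and by -1.08 and -1.35 in MRL. Cacna2d1, the alpha 2 delta subunit gene, fell from an average of 435 to 132 CPM in BL6 and from 376 to 189 CPM in MRL. Ryr1, which encodes the calcium release channel, fell in BL6 (-1.005) and stood at -0.33 in MRL (adjusted p = 0.242 in edgeR's test). Stac3, whose product is needed for coupling, fell in BL6 (-0.68) and stood at -0.43 in MRL, where it was called without operated replicate 4 (-0.55). The gamma subunit genes Cacng6 (-0.63 and -0.58) and Cacng7 (-1.48 and -1.28) fell in both strains, while Cacng1 was not called in BL6. Cacnb3, a beta subunit gene of other tissues, rose by 1.46 and 1.29 from averages of 2.33 and 2.02 CPM. The change of Cacnb3 was 0.75 in BL6 without operated replicate 4, and its MRL call was lost without unoperated replicate 2 (1.195) or operated replicate 3 (0.97).

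The sodium pump genes did not move together. Of 8 listed beside Atp1b1, 3 rose and 1 fell in each strain. Of all genes tested 35.1% were called higher and 32.8% lower in BL6, and 22.3% and 22.7% in MRL. The median log2 change of the 8 genes was 0.016 in BL6 against 0.041 over all genes tested, and 0.042 in MRL against 0.007. Among the beta subunit genes Atp1b2 fell in both strains (-1.35 and -1.17) and Atp1b3 rose in both (0.93 and 0.50). Atp1b4, listed by its place in the gene family and not by a shown role in the pump, rose in MRL (0.93) and stood at -0.11 in BL6. Its interaction was 1.04 (adjusted p = 0.104 in edgeR's test) and was not called, while DESeq2 called it at 1.03 (adjusted p = 0.0172 in DESeq2). Of the small FXYD regulators, Fxyd5 rose in both strains (2.27 and 1.17), and Fxyd1, the phospholemman gene of muscle, rose in BL6 (0.54) and stood at 0.20 in MRL.

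**Figure D4:**
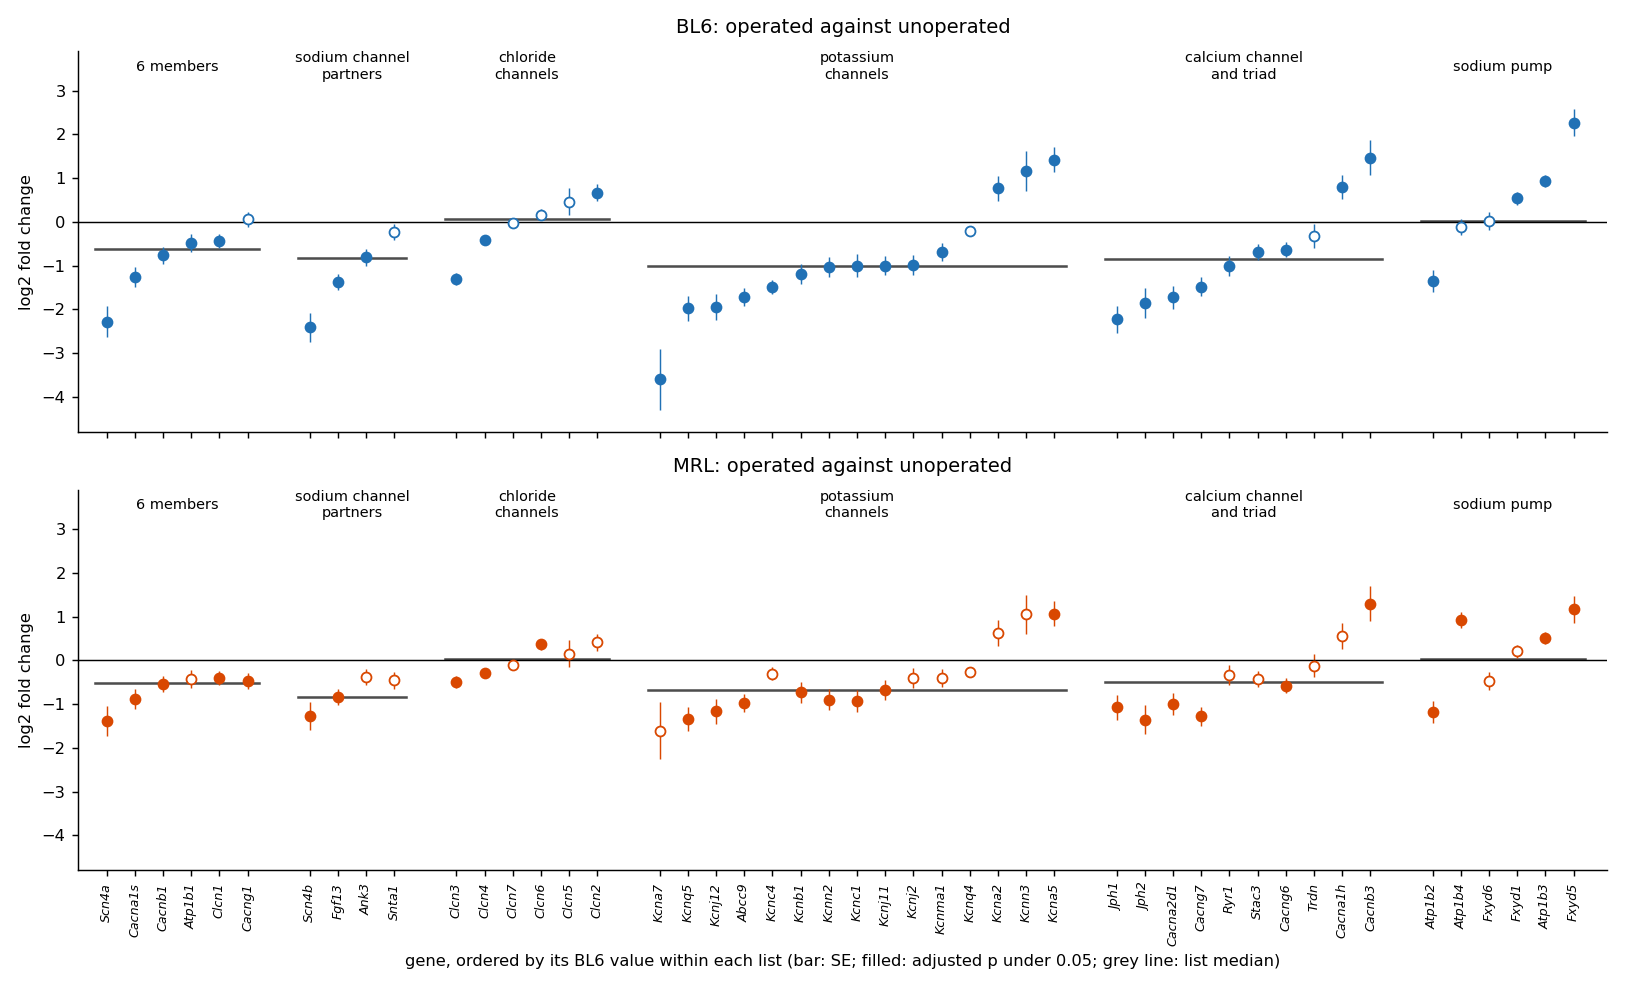
Log2 change from unoperated to operated muscle (vertical axis) of the 6 genes and of genes of the other excitability lists, named and grouped by list along the horizontal axis, in BL6 (upper) and MRL (lower), with bars for the SE, called genes filled and grey lines for the medians of all tested genes of a list. Most sodium, potassium and calcium channel genes lie below 0 in both strains, Kcna7 in BL6 lowest at -3.60, while sodium pump genes lie on both sides.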

How the data were processed

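Messenger RNA of 16 rotator cuff muscle samples in 4 groups was analysed from the table of whole-number counts per gene that the authors deposited, with 1 column per sample. RNA came from minced muscle treated with DNase, per the labels' protocols. STAR, FastQC and edgeR and the build mm10 are named, without versions, per the submitters' processing notes, and the counting program, its use of strand and the filter behind the 11710 genes are not given in the sources used here. The authors also deposited, per the file headers, an average log2 CPM and, for 4 comparisons, log2 fold changes, p-values and FDRs, quoted above only where named. Strain and surgery came from the labels' characteristics, and replicate numbers from the titles.

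From the counts, edgeR 4.0.16 (R 4.3.3) kept 11709 genes (filterByExpr, minimum count 10), scaled libraries by the trimmed mean of M values (TMM), and fitted 1 quasi-likelihood model to all 16 samples. CPM use TMM-scaled library sizes, and log2 CPM a prior count of 2. No 2 replicates agreed within sampling noise (lowest chi-square per degree of freedom 14.79). Intervals are 1.96 SE to each side. The 4 ratios were tested in each strain by exact permutation. On simulated data edgeR called 79% of 100 genes changed by 1 on the log2 scale for surgery in BL6 and 50% for the interaction, among 11709 genes. It called 0 of them in MRL, which was simulated without change. The simulation changed 100 genes by 1 and 100 by 2, while 67.9% of genes tested were called for surgery in BL6. These shares therefore do not give the power in the real data. Depth, 24323862 to 43552964 counts, limits precision less than the 4 samples per group do. Of the gene identifiers 11708 were found in GENCODE M21. Promoters came from a RefSeq table (GRCm38.p6).

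The genes, the lists and the tests were chosen with earlier results of these data known. The rule for names was all 6 genes, the 3 nearest profiles of each, and, from the other lists, genes called in either strain first. Listed genes outside the count table were not analysed here, and a few listed genes and 1 ratio are counted but not reported here. The alternatives were size factors of DESeq2's kind (RLE), total counts, TMM without mitochondrial genes, scaling by the fibre markers, no filter, DESeq2 1.42.0, limma 3.58.1 with voom weights, only the groups compared, a replicate block, and leaving out each library. Leaving out unoperated MRL replicate 1 and operated MRL replicate 4 together was added after seeing the data.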

Additional observations from a re-analysis of the deposited data

Results flagged for a closer look

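In 40 groups of 4 values a sample was sought whose gap to its nearest neighbour took up more than 0.829 of the whole range of the group, which chance gives in about 1 of 20 groups. It was found in 4. Cacnb1 in unoperated MRL was lowest in replicate 1, at 159.9 CPM, against 187 to 189 CPM in the rest of the group. Cacng1 in operated MRL was lowest in replicate 1, at 150.4 CPM, against 209 to 215 CPM. The log2 ratio of Cacnb1 to Cacna1s in operated MRL was lowest in replicate 1, at -1.748, against -1.662 to -1.652. The log2 ratio of Clcn1 to Scn4a in unoperated BL6 was highest in replicate 2, at -0.958, against -1.117 to -1.097.

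The change of Kcnc4 with surgery passed the test of a difference between the strains in the main analysis, with an interaction of 1.18 on the log2 scale in edgeR's quasi-likelihood test, a call that was lost when any 1 of 14 of the 16 libraries was left out and with scaling by total counts or by the fibre markers. Its mean level went from 140 ± 16.2 to 50.3 ± 10.1 CPM in BL6 and from 89.3 ± 7.47 to 72.4 ± 15.4 CPM in MRL (SD, n = 4).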

How the results depend on the processing

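Scn4a and Cacna1s kept their direction and call for surgery in both strains under every alternative run. The count of the 6 genes called was 5 in BL6 and 5 in MRL, against 67.9% and 45.0% of all genes tested. It was 3 in BL6 and 3 in MRL with total counts, where 63.0% and 33.5% of all genes were called. With scaling by the fibre markers it was 3 in BL6 (Scn4a and Cacna1s lower, Cacng1 higher) and 2 in MRL. On that scale 65.7% and 35.1% of all genes were called. With 1 library left out it was 3 to 5 in BL6 and 2 to 5 in MRL, where 7189 to 8177 and 3490 to 6145 genes were called. Between unoperated strains it was 0, but 2 with total counts, 2 with fibre scaling and 5 with only the groups compared. The shares of all genes tested were 10.4% in the main analysis, 9.01% with total counts, 5.11% with fibre scaling and 20.8% with only the groups compared. Between operated strains the count of the 6 was 0, but 1 with total counts and 0 to 1 with 1 library left out. Of all genes tested 12.9% were called there, 11.8% with total counts, and 1030 to 1842 genes with 1 library left out. Fibre scaling turned the sign of Clcn1 (0.181) and Atp1b1 (0.12) in BL6, of Clcn1 between unoperated strains (0.089), and of the interactions of Clcn1 (-0.188) and Atp1b1 (-0.146). The Clcn1 interaction was -0.042 with total counts. Without unoperated MRL replicate 1 and operated MRL replicate 4 the interactions were -0.055 (Clcn1), -0.06 (Cacnb1) and -0.105 (Atp1b1), and Scn4a between operated strains was -0.296. With 1 library left out, values crossed 0 for Cacng1 in BL6 (-0.146 to 0.154), for the interactions of Clcn1 (-0.078 to 0.186), Cacnb1 (-0.007 to 0.384) and Atp1b1 (-0.079 to 0.215), and between operated strains for Scn4a (-0.296 to 0.473), Clcn1 (-0.24 to 0.032), Cacnb1 (-0.366 to 0.033) and Cacng1 (-0.225 to 0.078). Beyond what these constructions change, the cause was not tested.

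The correlation of deviations of same-numbered samples averaged -0.141 in BL6, 0.092 in MRL, 0.16 between unoperated and 0.165 between operated strains. At least 1 pair lay below 0 in each (lowest -0.474, -0.245, -0.11 and -0.096). Samples of unlike number averaged 0.053, -0.041, -0.046 and -0.044 in the same order. The labels do not say that numbers pair samples, so the main fit had no block. Whether same-numbered samples shared a batch was not tested. With the replicate block the counts were 4 in BL6 (Atp1b1 lost) and 5 in MRL, and 0 in the interaction and in both comparisons of strains. Of all genes tested the block fit called 67.7% in BL6, 44.4% in MRL and 0.0171% for the interaction. It called 9.79% between unoperated and 11.6% between operated strains. The Kcnc4 interaction was not called with the block (1.17, adjusted p = 0.0903 in edgeR's test). No ratio test passed with the block either, where the exact p cannot go below 0.125. Over all genes the interaction gave 29 calls, against 2 with the block, 250 with DESeq2, 14 with total counts, 5 with fibre scaling and 1 to 69 with 1 library left out (1 without unoperated BL6 replicate 2, 69 without operated BL6 replicate 2). Calls between unoperated strains went from 1216 to 2438 with only the groups compared and 598 with fibre scaling, and between operated strains from 1507 to 575 and 595. With total counts 4443 genes were higher and 2932 lower in BL6, 742 and 313 between unoperated strains, and 994 and 383 between operated strains.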
